A study of Mus musculus with 20 samples.

Results

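The regions described here are 326 stretches of open chromatin in mouse brain endothelial cells that were called as peaks mostly in the libraries of 2 and 6 months and seldom in those of 12 and 18 months. Overlapping peaks of all 20 deposited lists were joined (1 bp was enough) into 51424 regions on chromosomes 1 to 19. The 326 members, 0.634% of these regions, were overlapped by a peak in at least 7 of the 9 libraries of 2 and 6 months and in at most 3 of the 11 libraries of 12 and 18 months. The calls themselves chose the members, so the difference between the younger and the older libraries is a description and was given no test.

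Each library was an ATAC-seq assay of 50000 brain endothelial cells sorted by flow cytometry from wild-type (WT) C57BL/6 mice. ATAC-seq uses a transposase that inserts sequencing adapters where DNA is not covered by nucleosomes. At 2 months there were 1 male and 3 female libraries, and at 6 months 2 male and 3 female. At 12 months there were 2 male and 3 female libraries, and at 18 months 3 male and 3 female. All groups shared strain and genotype, and the labels name no treatment. The labels do not state that every library came from a separate animal, so p-values measure only the spread between these libraries, which may be technical.

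Endothelial cells line the vessels of the brain and form the blood-brain barrier through tight junctions, selective transporters and low transcytosis. Regions of open chromatin lie at promoters, where transcription starts, and at distal elements such as enhancers, which bind transcription factors and can act on genes far away. Distal elements differ between cell types more than promoters do.

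All 15 genes of the brain endothelium marker list had at least 1 region within 10 kb. So did 10 of 15 marker genes of pericytes and smooth muscle, 9 of 12 of astrocytes, 10 of 14 of neurons, 7 of 11 of the oligodendrocyte lineage and 8 of 12 of fibroblasts. Of the markers of microglia and macrophages 4 of 14 had one, and of other blood cells 3 of 11. A region near a gene does not show that the gene is expressed, so these counts do not measure the purity of the sort. The deposited lists held 19829 to 35203 peaks in the younger libraries and 22530 to 39421 in the older ones, so the members were called in lists that were on the whole shorter. File names carry a library number, and these numbers form 3 separate ranges, here named sets. In the lowest range, set 1, are replicates 1, 2 and 6 of 18 months. In set 2 are replicate 1 of 2 months, every library of 12 months and replicates 3 to 5 of 18 months. The highest range, set 3, has replicates 2 to 4 of 2 months with every library of 6 months. The labels do not say what the numbers stand for. Age and set cannot be told apart except through replicate 1 of 2 months, the 1 younger library outside set 3.

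Only 1 promoter window of the RefSeq table (GRCm38.p6, the mm10 build, 250 bases before to 50 after a gene's start) overlapped a member, and it is shown because it is the single place where the deposited peaks and a printed reference sequence meet. The table is not complete. It belongs to the long noncoding RNA Gm39637 on the minus strand, at chr1:45734080-45734379. The member itself spans chr1:45733968-45734357. The capitals mark the 107 bases between the first and the last of its 10 peak summits (45734117 to 45734223), so every summit fell inside the window.

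Gm39637 promoter: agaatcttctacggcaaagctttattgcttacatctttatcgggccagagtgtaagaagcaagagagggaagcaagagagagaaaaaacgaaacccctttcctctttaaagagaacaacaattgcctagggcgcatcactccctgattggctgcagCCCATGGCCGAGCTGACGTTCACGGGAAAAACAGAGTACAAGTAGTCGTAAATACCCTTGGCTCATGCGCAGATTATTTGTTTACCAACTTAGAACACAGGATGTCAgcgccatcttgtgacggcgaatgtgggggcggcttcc

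This member was called in 7 younger and 3 older libraries, at the edge of the rule on both sides. Its folds over local background, the peak caller's own values, were 7.31, 5.60 and 5.07 in replicates 2 to 4 of 2 months. They were 3.72, 3.54, 6.92 and 3.89 in replicates 1 to 4 of 6 months. The 3 older calls had folds of 4.05 and 4.12 at 12 months and 5.63 at 18 months, within the range of the younger ones. Of 22 motifs searched on both strands of the window, 3 were found, a FOX motif (TGTTTAC), a glucocorticoid receptor motif (ACANNNTGT) and the CCAAT box. The FOX motif was present in 3.71% of all 31396 promoter windows of the table, the glucocorticoid receptor motif in 6.90% and CCAAT in 37.3%. The GC content of the window was 48.0%, beside a median of 53.0% over all windows, and it held 13 CpG sites beside a median of 7. A match of letters is not evidence that a factor binds.

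Within the rule the members were far from uniform. In the younger libraries 109 members were called 7 times, 115 were called 8 times and 102 were called in all 9. In the older libraries 200 members were called in none, 51 in 1, 35 in 2 and 40 in 3. The strictest form, all 9 younger and none of the 11 older libraries, held 56 regions, or 0.109% of all. Just outside the rule lay 117 regions called in 6 younger libraries and at most 3 older, and 24 called in at least 7 younger and in 4 older. The median fold in the younger libraries was 5.61 for members with 7 calls and 5.47 for the regions with 6. For the 9-call members it was 6.60. Values thus graded across the edge of the rule without a gap. For comparison, 625 regions (1.22%) met the opposite rule of at least 9 of the 11 older and at most 2 of the 9 younger libraries. They are called the opposite set below.

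**Figure D1:**
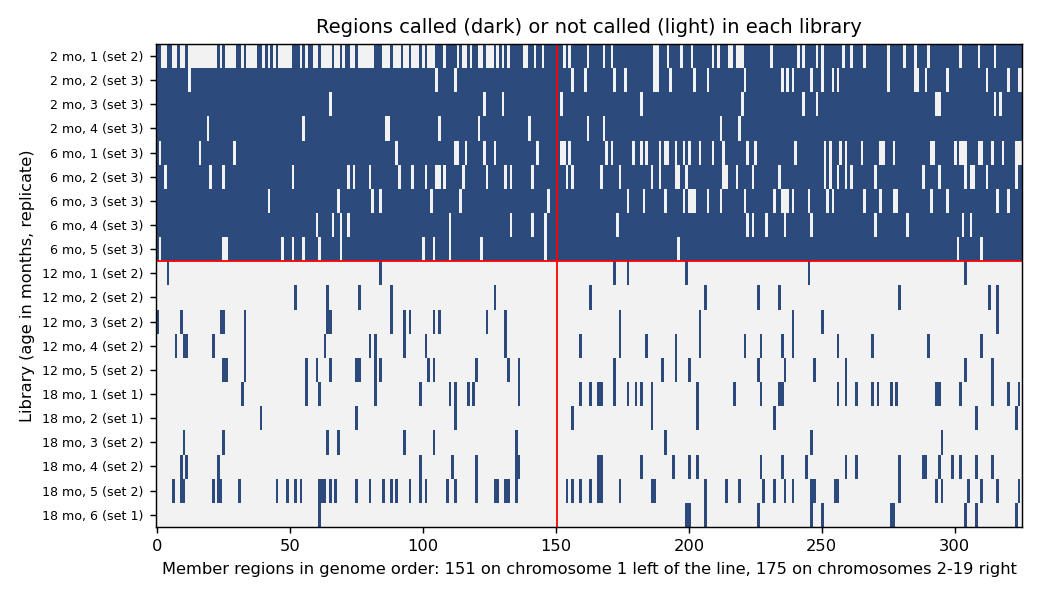
Calls of the 326 members in each of the 20 libraries, with members in genome order on the horizontal axis and 1 library in each row. The row of replicate 1 of 2 months has most of its gaps left of the vertical line, among the 151 members on chromosome 1. The rule fixes the contrast between the rows above and below the horizontal line.

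Replicate 1 of 2 months stood apart among the younger libraries. It called 63.8% of the members, whereas the other 3 libraries of 2 months called 91.1%, 96.3% and 96.6%. The libraries of 6 months called 84.4%, 86.2%, 89.9%, 94.5% and 95.1%. The older libraries called 2.15% to 7.67% at 12 months and 2.76% to 18.1% at 18 months, where the highest value was that of replicate 5. Members absent from replicate 1 of 2 months numbered 118, and 86 of these were on chromosome 1. For 64 members it was the only younger library without a call, and 55 of these were on chromosome 1. On chromosome 1 it called 43.0% of the members and the 8 libraries of set 3 called 88.1% to 98.0%. On chromosomes 2 to 19 it called 81.7%, inside the range of 76.6% to 98.3% in set 3.

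The same was seen when each library was set against members chosen by the other 19, so that its own calls took no part in the choice. The choice needed at least 7 younger calls, and at most 3 older ones, or 2 where an older library was left out. For replicate 1 of 2 months all choosing younger libraries were of set 3. For each library of set 3 all but 1 were of its own set, so its value and that of replicate 1 are not on equal terms. Left out in this way, replicate 1 of 2 months called 153 of 271 regions (56.5%). Each library of set 3 called 79.8% to 95.2% of the regions chosen without it, and each older library 2.43% to 19.1%. On chromosomes 2 to 19 the value of replicate 1 of 2 months was 76.1%, which overlapped the 70.5% to 97.3% of set 3. The older libraries of its own set reached 1.95% to 16.4% there. On chromosome 1 its value was 37.2%, below the 85.2% to 97.3% of set 3 and above the 1.504% to 22.2% of the older libraries of set 2. Of other regions called in a like number of libraries it called 12.8%, where the younger libraries ranged from 9.47% to 81.1% and the older ones from 16.0% to 90.9%. With 1 such library there is no replicate check of its position between the groups.

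**Figure D2:**
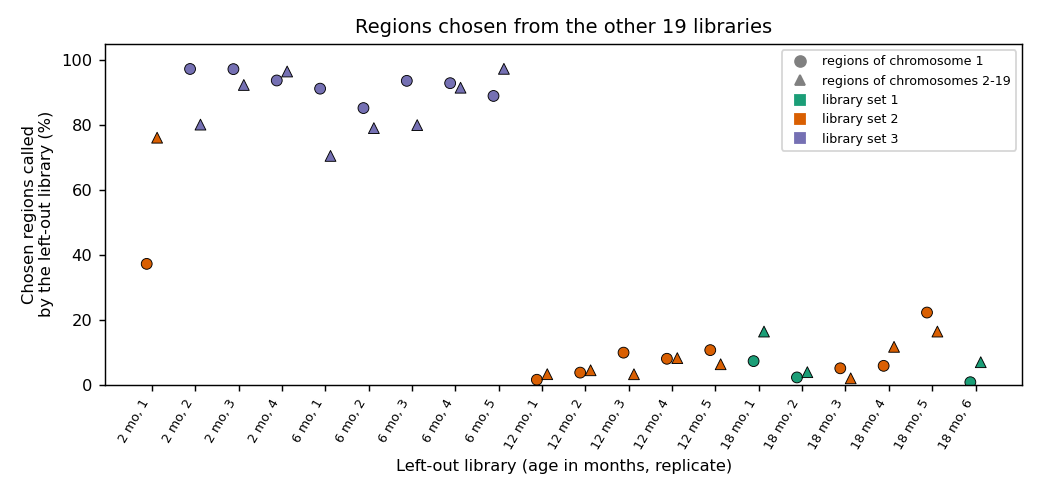
Percent of regions, chosen from the other 19 libraries, that the left-out library called; circles are chromosome 1, triangles are chromosomes 2 to 19 and colours are library sets. The circle of replicate 1 of 2 months (37.2%) lies apart from those of the other younger libraries, while its triangle (76.1%) lies among theirs.

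The 8 tests compared libraries on the same side of the age split, where the rule treats all libraries alike. The rule still limited them, since members needed at least 7 of the 9 younger calls and at most 3 of the 11 older ones. Differences in percent called on each side were bounded by this, so a high p cannot show that ages or sexes were alike. None of the 8 tests reached an adjusted p under 0.05. The libraries of 6 months called 90.0% ± 4.80 of the members (SD, n = 5) and those of 2 months 87.0% ± 15.6 (SD, n = 4), with an exact two-sided permutation p of 0.873 and an adjusted p of 0.968 over the 8 tests. The libraries of 18 months called 7.87% ± 6.06 (SD, n = 6) and those of 12 months 5.34% ± 2.38 (SD, n = 5), with an exact permutation p of 0.433 and an adjusted p of 0.866. At 2 and 6 months the difference of female minus male libraries, averaged over both ages, was 11.5 percentage points (exact permutation p = 0.25, adjusted p = 0.667). It took opposite signs at the 2 ages. The single male of 2 months, which is replicate 1 of that age, lay below all 3 females, and both males of 6 months lay above all 3 females. At 12 and 18 months female libraries called 8.49% of the members on average and male libraries 4.601%. The difference tested, averaged over both ages, was 4.17 percentage points (exact permutation p = 0.125, adjusted p = 0.5).

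Peaks at the members were of middling or low strength in the younger libraries. The strength percentile ranks each peak by its q-value within its own list, with 100 the strongest. The median percentile of member peaks was 33.4 to 54.5 in the 9 younger libraries and 9.32 to 30.6 in the 11 older ones, with no overlap. The rule chose members for being seldom called in the older libraries, so the older values rest on 7 to 59 called members each. The lists also differ in length. This difference therefore cannot be read as a change in signal. At 2 months the mean of the medians was 43.5 ± 6.62 (SD, n = 4) and at 6 months 43.1 ± 7.68 (SD, n = 5), and the exact permutation p was 0.968. At 12 months it was 23.5 ± 8.30 (SD, n = 5) and at 18 months 24.5 ± 1.70 (SD, n = 6), with an exact permutation p of 0.913. Averaged over both ages, female libraries of 12 and 18 months ranked 6.11 percentiles above male ones (exact permutation p = 0.035), which did not pass the adjustment (adjusted p = 0.28). Without replicate 1 of 12 months, whose median rested on 7 called members, this difference was -0.924. Between female and male libraries of 2 and 6 months it was -2.38 (exact permutation p = 0.7).

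**Figure D3:**
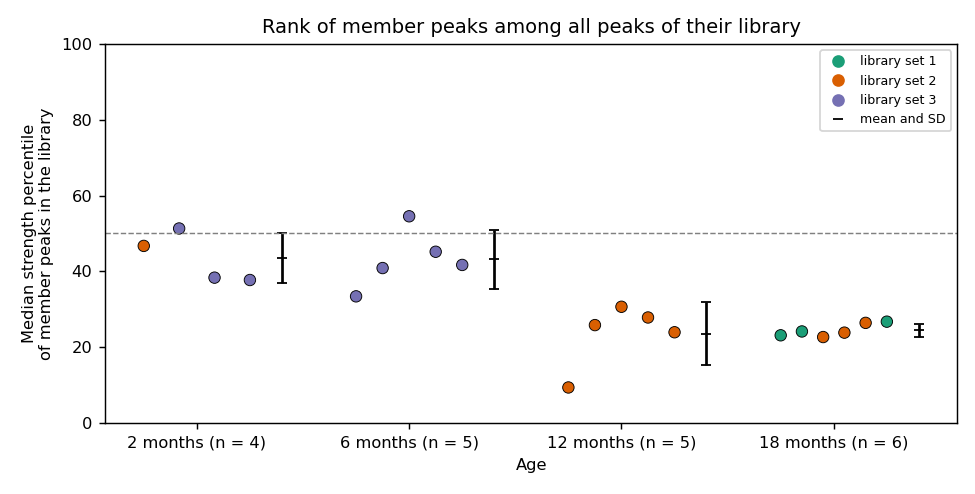
Median strength percentile (100 = strongest) of member peaks within each library's own list, 1 point per library, with the mean and SD of each age beside the points. The younger libraries lie at 33.4 to 54.5 and the older ones at 9.32 to 30.6. The rule limits the older points to the 7 to 59 members called in each of those libraries. The dashed line marks 50, the middle of a list.

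Member peaks were narrow. Their median width in the younger libraries was 274 to 313 bp, whereas all peaks of the same lists had medians of 373 to 548 bp. The pileup at a summit (the height of stacked fragments) and its local background were worked out from fold and p together. The pileup of member peaks had a median of 16 to 28 in the younger libraries and 15 to 23 in the older ones, the latter over the few members called there. Read depth is not in the files, and its part in the calls was not tested.

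Chromosome 1 held 151 of the 326 members (46.3%) and 8.53% of all regions. The share of a chromosome's regions that were members was 3.44% on chromosome 1 and ran from 0.148% on chromosome 15 to 0.809% on chromosome 16 among the others. Within chromosome 1 the members crowded towards its start. The first 35 Mb held 97 members among 895 regions (10.8%), the next 35 Mb held 28 among 742 (3.77%) and the third held 12 among 838 (1.43%). The remaining 3 stretches held 5, 5 and 4. Members in the first 35 Mb made up 29.8% of all members (exact 95% binomial interval 24.8% to 35.04%, counting error only), and the same stretch held 1.74% of all regions. The interval takes members as independent. It may be too narrow, since 56 members on chromosome 1 lay less than 100 kb from another member. The opposite set had 45 regions on chromosome 1 (7.20%) and 3 in its first 35 Mb.

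Peaks in this stretch that were not at members numbered 214 in replicate 1 of 2 months and 287 to 392 in the libraries of set 3. They numbered 367 in replicate 5 of 18 months and 238 to 287 in the other older libraries. The lowest count was that of replicate 1 of 2 months. These counts were not scaled to list length, and its list was short, with 20640 peaks on chromosomes 1 to 19. The older lists held 21779 to 37162 there. The shortest list, replicate 3 of 6 months with 19144, had 392 such peaks. The local background of the non-member peaks in this stretch was taken relative to that on chromosomes 2 to 19. It was 0.991 to 1.33 in the younger libraries and 0.888 to 1.09 in the older ones. The ranges overlapped, and the part of this difference in the calls was not tested. Replicate 1 of 2 months had a ratio of 1.17, inside the range of set 3. Members on chromosome 1 were wider than the others, with a median of 481 bp beside 347 bp on chromosomes 2 to 19.

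**Figure D4:**
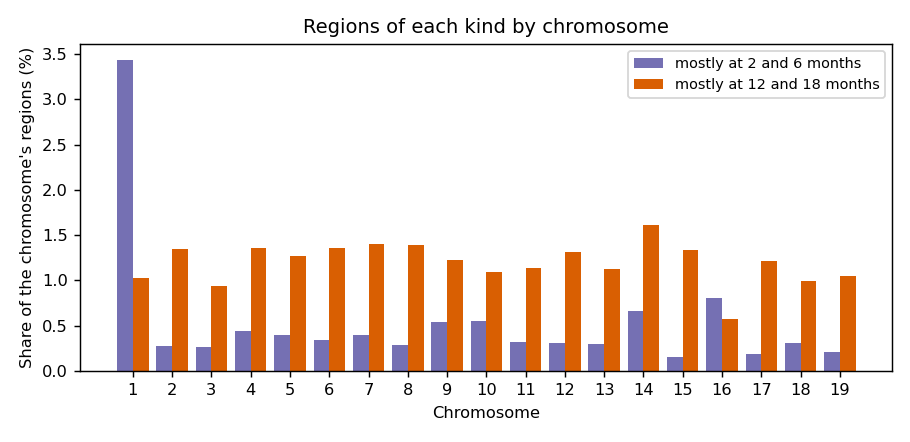
Share of the regions of each chromosome that were called mostly at 2 and 6 months (purple) or mostly at 12 and 18 months (orange), in percent. Chromosome 1 stands at 3.44% for the younger set, and no other chromosome exceeds 0.809%; for the older set it stands at 1.03%.

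Neighbouring members less than 100 kb apart formed 282 runs, counting single members, and the 10 runs of 3 or more were all on chromosome 1. The run with the most members held 6 over 162 kb (5272265 to 5433764), between Atp6v1h, a subunit of the proton pump of lysosomes, and Oprk1, the kappa opioid receptor. Replicate 1 of 2 months called 16.7% of these 6. A run of 5 over 113 kb (8600492 to 8713284) lay inside Sntg1, a syntrophin, and was called in at most 1 older library at each member. Runs of 4 lay inside Xkr4, a relative of the phospholipid scramblases (3307921 to 3347957), inside A830018L16Rik (11707130 to 11777526) and 800.4 kb from the nearest protein-coding gene end (29580609 to 29647004).

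The members lay away from genes. The ends of a gene here are both annotated ends of a protein-coding gene, start and stop alike. Only 1 member (0.307%, exact 95% interval 0.0078% to 1.70%) was within 1 kb of one, whereas 23.1% of all regions and 14.6% of the opposite set were. Over 50 kb from any gene end lay 194 members (59.5%, exact 95% interval 54.0% to 64.9%), beside 25.2% of all regions and 25.9% of the opposite set. Both intervals hold counting error only and take members as independent. They may be too narrow, since 70 members lay in runs of 2 or more. The median distance was 91.9 kb for members and 13.9 kb for all regions. Inside a protein-coding gene lay 99 members (30.4%), and 61.0% of all regions. Regions of a like number of calls, 7 to 12 of 20 libraries, that were not members had 13.8% within 1 kb and 25.0% over 50 kb. They were thus closer to the members than all regions were within 1 kb, and about level with all regions beyond 50 kb. In the first 35 Mb of chromosome 1, 49.1% of 57 such regions were over 50 kb away, beside 73.2% of the 97 members there. Within 1 kb were 5.26% of those regions and 0 members, and inside a gene 33.3% and 39.2%. The part of location in the distances was not tested. The difference was present away from chromosome 1 as well, where 1 of 175 members was within 1 kb and 53.1% were over 50 kb away. With lists shortened to the same number of peaks, 3.77% of members were within 1 kb and 53.8% over 50 kb away.

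The members were also remote from constantly open chromatin. The median distance to the nearest region called in all 20 libraries was 210 kb for members, 31.6 kb for all regions, 27.1 kb for the opposite set and 23.7 kb for other regions of a like number of calls. Their median width was 414.5 bp, beside 516 bp for all regions and 536 bp for those of a like number of calls. Summits of different libraries in a member deviated from their median position by a median of 16 bp. This was 13 bp for all regions and 24 bp for regions of a like number of calls. In 94.2% of members no library had more than 1 peak, which was close to the 92.9% of regions of a like number of calls. Long noncoding RNA genes covered 6.13% of members and 12.6% of all regions, and pseudogenes 2.76% and 1.51%.

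**Figure D5:**
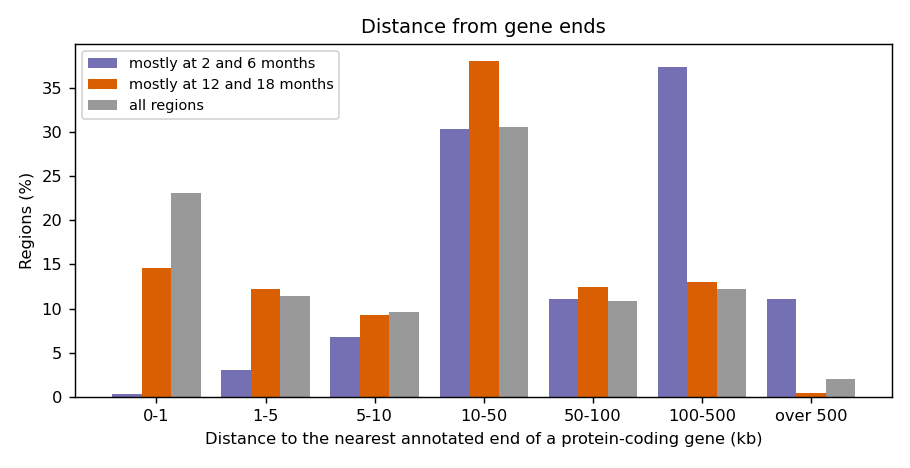
Percent of regions by distance to the nearest annotated end of a protein-coding gene, for the 326 members (purple), the 625 regions of the opposite set (orange) and all regions (grey). Of the members 37.4% lie 100 to 500 kb away and 11.04% over 500 kb, while 0.307% lie within 1 kb.

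Members at genes of endothelial function were counted in lists chosen with earlier results known. A list gene was counted when a member was inside it or within 10 kb of it. Of 232 genes in 9 lists of pathways, 4 had a member (1.72%), and among all protein-coding genes 104 of 20665 did (0.503%). Of these 4, Slc25a54, Casp8 and Hsd11b1 were already known from earlier results to have a member, so the share by gene is no independent evidence. Counted by region, 5 of the 1418 regions at the listed genes were members (0.353%), beside 0.634% of all regions. The lists of barrier junctions (24 genes), endothelial transcription factors (34), Wnt and beta-catenin signalling (23), cell cycle and senescence (25) and basement membrane (25) had no member. At the 0.503% of all genes most lists of this size would have none, so the zeros are not a result about these pathways. Of 88 genes marking other cell types only Slc4a4, an astrocyte bicarbonate transporter, had a member (1.14%). By region this was 1 of 112 (0.893%), and it rests on 1 member, so it is not a result about these cell types. The nearest gene end was within 50 kb for 132 members and belonged to 127 different genes.

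Of 136 regions at the endothelial markers 1 was a member (0.735%), beside 0.634% of all regions. By gene it was 1 of 15 (6.67%), beside 0.503% of all genes. Both shares rest on 1 member and are not a result about the markers. This member lay inside Flt1, a receptor that binds VEGF (chromosome 5, 147611343 to 147611724). Its folds were 5.37, 9.61, 7.42 and 4.95 at 2 months and 10.0, 5.97 and 6.56 in replicates 3 to 5 of 6 months. It was also called in 2 libraries of 12 months with folds of 4.50 and 4.64, and in none of 18 months. All younger folds were above the older ones, but a library without a call gives no fold.

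Hsd11b1, whose enzyme regenerates active glucocorticoid, had a member inside the gene (chromosome 1, 193227692 to 193228038), called in all 9 younger and no older library. Its folds were 7.76, 12.5, 9.68 and 7.58 at 2 months and 6.85, 6.47, 15.2, 6.51 and 8.71 at 6 months. Replicate 1 of 2 months lay within the range of the others here, towards the far end of chromosome 1. Casp8, the initiator caspase of death receptor signalling, held 2 members about 2 kb apart. The first (chromosome 1, 58814487 to 58814830) was called in 8 younger libraries with folds of 6.36 to 9.96, replicate 1 of 2 months among them at 9.04. The second (58816536 to 58817050) was weaker, called in 7 with folds of 3.90 to 5.81, and absent from replicate 1 of 2 months. Neither was called in an older library.

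The strongest member with a gene end within 50 kb was 8.49 kb from Slc25a54, a mitochondrial carrier that was also on the transporter list (chromosome 3, 109071712 to 109072005). Its folds were 11.03, 11.2, 10.96 and 10.03 at 2 months and 8.08, 11.2, 13.7, 10.2 and 10.1 at 6 months. At 18 months 3 libraries called it with folds of 6.06, 5.54 and 5.45, and no library of 12 months did. It ranked at the 83.0th percentile of its lists (median over the younger libraries).

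Next in strength was a member inside Tfap2d, a transcription factor of the AP-2 family (chromosome 1, 19131791 to 19132271). It had folds of 13.9, 12.8 and 8.32 in replicates 2 to 4 of 2 months and 12.0, 10.5, 12.7, 8.34 and 9.76 at 6 months. It was called neither in replicate 1 of 2 months nor in any older library. Also strong on chromosome 1 were members near Eya1, a transcriptional coactivator, and Oprk1. The Eya1 member (14119468 to 14119849) was called in all 9 younger libraries, at 6.00 in replicate 1 of 2 months and 5.65 to 11.7 in the others. The Oprk1 member (5627903 to 5628260) was called in 7, without replicate 1 of 2 months, at 6.60 to 13.5.

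The other strong members lay on several chromosomes and were called in all 9 younger libraries. Inside Rdh13, a retinol dehydrogenase, and 3.18 kb from the end of Eps8l1, 1 member (chromosome 7, 4457138 to 4457461) had folds of 7.10 to 10.6 and no older call. Inside Mier3, a transcriptional regulator, 1 (chromosome 13, 111698231 to 111698621) had folds of 7.10 to 10.6 and no older call. A member 49.9 kb from Krtap4-6, a keratin-associated protein gene (chromosome 11, 99715813 to 99716515), had folds of 5.63 to 10.2, again without an older call. Near the predicted gene Gm38664, on distal chromosome 1 (181266032 to 181266329), folds were 7.10 to 10.2 with no older call. Near Olfr816, an olfactory receptor gene (chromosome 10, 129927207 to 129927558), folds were 7.93 to 13.6, and 1 library of 18 months called the region at 4.95.

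Myct1, a gene of vascular endothelium, had a member 10.8 kb from its end (chromosome 10, 5582613 to 5582925) with folds from 7.22 to 8.82 in the 9 younger libraries. That range was narrow, and no older library called it. A member inside Kcnb2, a voltage-gated potassium channel gene, and the predicted gene Gm51415 (chromosome 1, 15396295 to 15396678) had folds of 6.70 to 12.9 and 1 older call at 4.46. The astrocyte gene Slc4a4 held a member (chromosome 5, 89002397 to 89002701) called in 7 younger libraries at 6.12 to 7.22 and in 1 of 18 months at 6.49, inside the younger range. The only member within 1 kb of a gene end was inside Gm4070 (chromosome 7, 105952478 to 105953006, 961 bp from the end). It was absent from replicate 1 of 2 months, and its folds in the other 8 younger libraries were low, at 2.80 to 5.35. Its median pileup in the younger libraries was 31.5. Unlike most members, it lay close to a region called in all 20 libraries, at 175 bp.

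Sox17, a transcription factor of arterial endothelium, met none of the rules for naming and is named after its values were seen. A member 64.8 kb from it (chromosome 1, 4562234 to 4563384) was called in all 9 younger and no older library at the lowest median fold of all members, 2.49. Its folds ran from 2.33 to 2.81. Its median pileup of 97 was high and so was the background beside it. Replicate 1 of 2 months had the highest of these folds.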

How the data were processed

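The deposited files were narrowPeak lists of mm10 peaks for 20 libraries. The submitters' processing notes name MACS2 2.1.0, Picard 1.115, Trim Galore 0.4.2 and FastQC without saying what each did; the aligner is not given in the sources used here. Per the file names, blacklisted regions had been removed. In the deposited lists, the score, the fold (a ratio over local background), the -log10 p and -log10 q of a peak are the authors' values from their peak caller, called per library with no pooling apparent. Read depth is not in these files.

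Python 3.11.15, numpy 2.4.6, pandas 2.3.3 and scipy 1.17.1 were used. Peaks were joined, members chosen and ranked as described in the results. Pileup and background were solved from fold and -log10 p as a Poisson tail, which gave whole pileups within 0.01 for 99.95% to 100% of 2000 peaks sampled per library, after a test on simulated peaks. Gene positions came from RefSeq GRCm38.p6, and 340 of 349 list entries were found on chromosomes 1 to 19. Contrasts used exact two-sided permutation tests over libraries (sexes permuted within age) with Benjamini-Hochberg adjustment over 8. The smallest p they allow is 0.00794 for 6 against 2 months, 0.00216 for 18 against 12 months, 0.025 for sex at 2 and 6 months and 0.005 at 12 and 18 months.

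The members and lists were chosen with earlier results of these data known. Named were members within 1 kb of a gene end, the 10 strongest with a gene end within 50 kb, those at list genes, the 5 runs with the most members, and those at genes known from earlier results. The members at the Gm39637 window and near Sox17 were named outside these rules. Choosing members without each library and the splits by chromosome were added after the data were seen. A planned look at GC content and motifs in the members themselves was not run, since no genome sequence was used here. Start-site distances were left out because the promoter table was sparse in places.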

Additional observations from a re-analysis of the deposited data

Results flagged for a closer look

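Replicate 1 of 2 months was set apart from the other libraries of its age in 2 measures. It called 63.8% of the members, and the nearest of the other 3 called 91.1%. Among members on chromosome 1 it called 43.05% and the nearest called 95.36%. Replicate 5 of 18 months called 21.19% of the members on chromosome 1, and the nearest of the other 5 libraries of 18 months 6.623%. These 3 came from 20 groups of values, and chance flags about 1 in 20 groups. The groups are not independent, since members on chromosome 1 are part of all members and the same calls chose the members. The number of flags therefore cannot be set against chance.

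The female minus male difference in the percent of members called was 30.88 points at 2 months and -7.975 points at 6 months, with every male library on one side of every female one at both ages. For members on chromosomes 2 to 19 it was 10.86 points at 2 months and -14.19 points at 6 months. The difference between the ages was not tested. It rests on 1 male at 2 months, the younger library outside set 3, so sex and library set cannot be told apart there. These pairs came from 8 looked at.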

How the results depend on the processing

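The number of members was 292 with lists of equal length, 287 at a -log10 q of at least 5, 306 where peaks had to cover 50% of the region, 188 with at least 8 of 9 and at most 2 of 11, and 56 with all 9 and none of 11. In the last 2, members over 50 kb from a gene end made up 66.49% and 71.43%, and those in the first 35 Mb of chromosome 1 made up 21.43% of the 56. Leaving out each library in turn gave 227 to 309 members, 28.9% to 33.77% of them in that stretch and 59.87% to 64.76% over 50 kb away.

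None of the 8 tests passed an adjusted p under 0.05 under any alternative, but most changed sign under some. In percent called, 18 against 12 months was -4.966 and female against male at 2 and 6 months -0.5137 with equal lists. In strength, equal lists gave 4.955 for 6 against 2 months and -0.5043 for sex at 12 and 18 months. A -log10 q of at least 5 gave -3.383 for 18 against 12 months and 0.09307 for sex at 2 and 6 months, and 50% cover gave -3.379 for 18 against 12 months. Within set 3, 6 against 2 months was -4.683 in percent called and 0.679 in strength. With members of chromosome 1 alone, strength was 3.373 for 6 against 2 months, -3.224 for 18 against 12 months and 3.748 for sex at 2 and 6 months. With chromosomes 2 to 19 alone, percent called was -2.086 for 6 against 2 months and -1.667 for sex at 2 and 6 months. The causes were not tested.

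Leaving out each library gave, in percent called, -2.239 to 7.636 (6 against 2 months), 0.4531 to 3.264 (18 against 12), -5.781 to 13.57 (sex, younger) and 1.241 to 4.4 (sex, older), where -2.239 and -5.781 came without replicate 1 of 2 months. In strength it gave -3.397 to 2.909, -1.179 to 10.57, -4.255 to 1.97 and -0.924 to 7.928 in the same order. No paired analysis was possible because the replicate numbers used here only name libraries in order within an age, and nothing in the labels ties libraries of different ages to each other. Read depth is unknown, and a region without a call may still hold reads.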

Other observations

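The X chromosome was outside the rule. Of its 2202 regions, 23 were called in at least 7 of the 9 younger and at most 3 of the 11 older libraries (1.04%), and 19 met the opposite rule.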
